A study of Mus musculus with 2 samples.

Results

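The kelch ubiquitin ligase adaptors were taken as the genes with a protein-coding transcript whose symbol begins with Klhl or Kbtbd followed by a digit, and 45 of the 55450 mouse genes listed by both quantifications met this rule. They were measured by total RNA sequencing of gastrocnemius, the large calf muscle, from adult female mice aged 8 to 10 months. The mice were a cross of 5xFAD and CAST. 5xFAD mice carry mutated human transgenes driven by the neuronal Thy1 promoter, CAST is a wild-derived inbred strain, and the labels do not give the transgene status of each animal. The data are 2 libraries of 1 group, made from 300 ng of RNA each and numbered biological replicates 1 and 2. No other tissue, strain or genotype stands beside them. Each mean ± SD is over n = 2 libraries, and no test between groups was possible. The labels give both libraries 1 donor identifier, so separate animals are not settled and the SD may be technical.

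Kelch adaptors bring proteins to a ubiquitin ligase. The BTB domain of an adaptor, with the BACK domain that follows it, binds the cullin CUL3, and the kelch repeats fold into a propeller that holds the protein to be ubiquitinated. CUL3 also binds RBX1, the RING subunit that recruits the ubiquitin-loaded enzyme, so the adaptor decides which substrate the ligase marks. In striated muscle several members are known as sarcomere proteins, and mutations in KLHL40, KLHL41 and KBTBD13 cause nemaline myopathy in humans.

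Library 2 held 34541905 expected counts and library 1 held 35594289, of which spike-in RNAs made up 0.505% in library 2 and 0.479% in library 1. TPM is the share of transcripts after correction for their length. The tissue label was checked against marker genes. The 6 fast-fibre markers summed to 55798 TPM in library 2 and 48875 TPM in library 1, and the 6 slow-fibre markers to 1699 and 1242 TPM in libraries 2 and 1. Of the other cell types, in libraries 2 and 1, the 4 fibroblast markers summed to 144 and 129.9, the 5 endothelial markers to 43.7 and 38.5 and the 5 macrophage markers to 20.9 and 22.8 TPM. The 5 neuronal markers, of which 1 was detected, summed to 1.61 TPM in library 2 and 1.38 TPM in library 1, and the 5 lymphoid markers, of which 0 were detected, to 0.42 TPM in library 2 and 0.39 TPM in library 1. In bulk muscle, fewer cells of a type and less RNA per cell cannot be told apart.

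The kelch adaptor RNA of this muscle was led by a pair of striated-muscle members. Of the 45 members, 30 (66.7%) were detected at TPM of at least 1 in both libraries, beside 44.7% of the 21888 nuclear genes with a protein-coding transcript. Another 3 members passed TPM 1 in 1 library only, and 12 stayed below it in both. The median member stood at 3.16 TPM in library 2 and 2.43 TPM in library 1, against 0.63 and 0.56 TPM in libraries 2 and 1 for the median nuclear coding gene. The 45 members together held 999 TPM in library 2 and 889 TPM in library 1 (944 ± 77.7), which was 0.224% of nuclear coding TPM in library 2 and 0.227% in library 1 (0.226 ± 0.0024%). This pool was unevenly filled. The 2 highest members, Klhl31 and Klhl41, held 53.5% of it in library 2 and 51.5% in library 1, the 3 highest held 60.0% in library 2 and 58.1% in library 1, and 12 members held 90% of it in each library. By mean TPM, 13 members stood at 10 or above, 19 between 1 and 10, and 13 under 1.

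**Figure D1:**
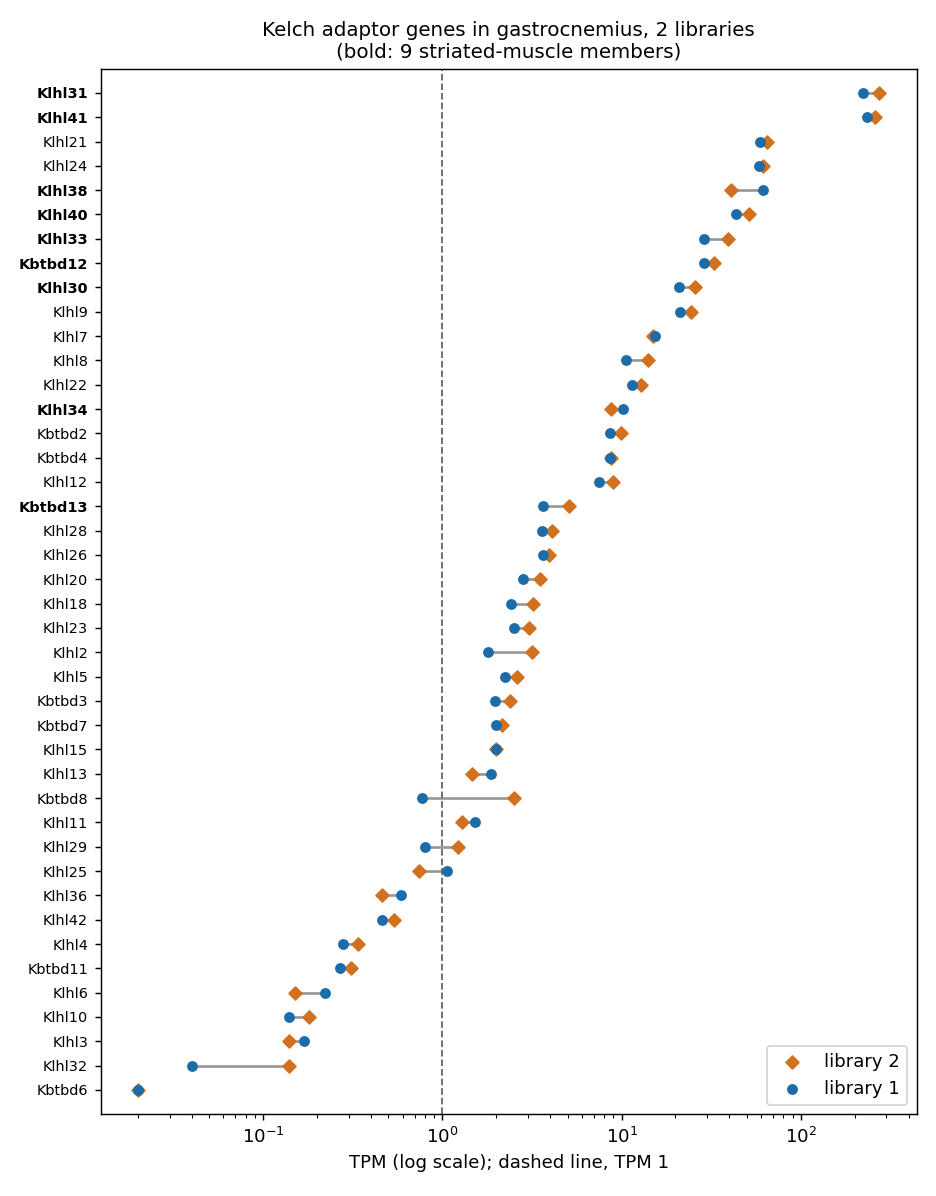
TPM of the 42 kelch members with any count, in order of mean TPM (log axis), with an orange diamond for library 2, a blue circle for library 1 and a grey line joining them. Klhl31 and Klhl41 sit between 222 and 275 TPM, apart from the next members at 41.0 to 65.1 TPM, and the dashed line marks the detection level of TPM 1.

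Klhl31 (ENSMUSG00000044938.8), a kelch protein needed for normal skeletal muscle structure in mice, stood at 275 TPM in library 2 and 222 TPM in library 1 (249 ± 37.4). Its gene lies on chromosome 9 at 77636500 to 77660127 on the plus strand (mm10), and 46226 counts in library 2 and 43172 in library 1 stand behind these values. Klhl41 (ENSMUSG00000075307.3, chromosome 2 at 69670120 to 69684230, plus strand), which in muscle binds nebulin and the nebulin-related protein NRAP, stood at 259.9 TPM in library 2 and 236 TPM in library 1 (248 ± 17.1), from 16601 and 17404 counts in libraries 2 and 1. The order of Klhl31 and Klhl41 changed between the libraries, so neither was the higher beyond the spread. Among nuclear coding genes, Klhl31 ranked 179 in library 2 and 203 in library 1, and Klhl41 ranked 192 in library 2 and 186 in library 1. Both genes have 1 annotated transcript, so neither level depends on how reads were divided among transcripts. Klhl31 has 634 residues and its closest member in the translated annotation was Klhl14, at 37.9% identity, while Klhl41 has 606 residues and was 53.0% identical to Klhl40 over 604 aligned residues.

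The other nemaline myopathy genes were also present, at lower levels. Klhl40 (chromosome 9 at 121777607 to 121783818), which stabilises nebulin and leiomodin 3 in the thin filament, stood at 51.4 TPM in library 2 and 43.5 TPM in library 1 (47.5 ± 5.56; 3061 and 2999 counts in libraries 2 and 1). Kbtbd13 (chromosome 9 at 65388684 to 65391652), a CUL3 adaptor of striated muscle, stood at 5.06 and 3.66 TPM in libraries 2 and 1 (4.36 ± 0.99), from 382 counts in library 2 and 319 in library 1. The levels of Klhl41, Klhl40 and Kbtbd13 did not overlap across the libraries, with Klhl41 the highest and Kbtbd13 the lowest.

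A list of 6 further striated-muscle members was detected in full. Klhl38 (chromosome 15 at 58314573 to 58324169) had 41.0 TPM in library 2 and 61.7 TPM in library 1 (51.3 ± 14.6), and among members with mean TPM of at least 1 it was the one whose scaled counts lay furthest apart. Klhl33 (chromosome 14 at 50888582 to 50897507) had 39.4 and 28.9 TPM in libraries 2 and 1 (34.1 ± 7.44), and Kbtbd12 (chromosome 6 at 88545114 to 88637950) had 32.9 and 28.8 TPM in libraries 2 and 1 (30.8 ± 2.84). Klhl30 (chromosome 1 at 91351016 to 91362416) had 25.7 TPM in library 2 and 21.03 TPM in library 1 (23.3 ± 3.27). Klhl34, a gene with a single coding exon on the X chromosome (157818435 to 157820369), was the lowest of the 6 at 8.72 and 10.2 TPM in libraries 2 and 1 (9.44 ± 1.01). With Klhl40, Klhl41 and Kbtbd13, these 9 muscle members held 74.0% of member TPM in library 2 and 73.7% in library 1 (73.8 ± 0.173%). Their median mean TPM was 34.1, against 2.04 for the other 36 members, of which 21 were detected. The list was drawn up with earlier results of these data known, so its high level is a description.

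Promoter windows of 250 bases before the RefSeq start (GRCm38.p6) were available for 35 of the 45 members and are shown for the 3 that hold the consensus of MEF2, a family of muscle transcription factors. All 3, Klhl41, Klhl33 and Kbtbd12, are on the muscle list. The windows of Klhl31, Klhl40, Klhl34 and Kbtbd13, also on that list, held no MEF2 match, and Klhl38 and Klhl30 had no window. That of Klhl31, the highest member by mean TPM, held no CAGCTG or TATAAA either. The RefSeq start of Klhl31 lies 232 bases downstream of the start of its leading GENCODE transcript. Most of the Klhl31 window thus lies past that start, and the bases before it were hardly searched. Each line is the gene's own strand, 5′ to 3′, with the MEF2 match in capitals. In Klhl41 the first run of capitals is CAGCTG, an E-box of the kind bound by myogenic bHLH factors.
Klhl41: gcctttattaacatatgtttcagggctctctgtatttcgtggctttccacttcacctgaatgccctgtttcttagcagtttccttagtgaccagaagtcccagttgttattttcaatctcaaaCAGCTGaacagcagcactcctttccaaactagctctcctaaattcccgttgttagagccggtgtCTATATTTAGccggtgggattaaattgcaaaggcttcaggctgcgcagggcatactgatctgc
Klhl33: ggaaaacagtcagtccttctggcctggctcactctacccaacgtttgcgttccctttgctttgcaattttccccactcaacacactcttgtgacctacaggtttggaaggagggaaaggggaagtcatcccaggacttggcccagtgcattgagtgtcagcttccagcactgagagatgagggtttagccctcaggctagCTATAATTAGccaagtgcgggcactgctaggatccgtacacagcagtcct
Kbtbd12: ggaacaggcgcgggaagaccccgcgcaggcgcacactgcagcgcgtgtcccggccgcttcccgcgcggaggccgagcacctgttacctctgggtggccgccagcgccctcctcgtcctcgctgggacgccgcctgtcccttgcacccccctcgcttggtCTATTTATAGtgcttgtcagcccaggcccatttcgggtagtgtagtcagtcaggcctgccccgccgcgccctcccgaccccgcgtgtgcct
The Klhl41 window is chr2:69669870-69670119 on the plus strand and ends at the base before the start of its transcript, with the E-box at -127 and the MEF2 match at -63. The Klhl33 window is chr14:50897484-50897733 on the minus strand, with the match at -50, and its RefSeq start lies 24 bases downstream of the start of its leading GENCODE transcript. The Kbtbd12 window is chr6:88627430-88627679 on the minus strand, with the match at -91, 13 bases downstream by the same measure, and TATAAA on its other strand overlaps the match at -88. Both strands were searched. Among 32851 windows of the same length, 2.92% held the MEF2 consensus, 13.0% held CAGCTG and 12.4% held TATAAA, against 3, 8 and 3 of the 35 members. Some member windows lie away from the start of the leading transcript. The RefSeq start lies upstream of it by 3150 bases for Klhl22 and 881 bases for Klhl15. For Kbtbd2 it lies 523 bases downstream, and for Klhl31 232. The counts were not repeated without these windows. Of the 9 members with a window and mean TPM of at least 10, which include Klhl22 and Klhl31, 3 held the MEF2 consensus and 3 held CAGCTG. These matches are letters in a window, and binding was not measured.

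Outside the muscle list, the highest members were Klhl21 and Klhl24. Klhl21 (chromosome 4 at 152008803 to 152017680), an adaptor that directs CUL3 to Aurora B during cell division, stood at 65.1 TPM in library 2 and 58.9 TPM in library 1 (62.0 ± 4.34; 6650 and 6964 counts in libraries 2 and 1). Klhl24 (chromosome 16 at 20097542 to 20129221), an adaptor for keratin 14 in skin whose human mutations also cause a cardiomyopathy, stood at 61.5 and 58.3 TPM in libraries 2 and 1 (59.9 ± 2.31; 7933 and 8361 counts in libraries 2 and 1). These levels overlapped each other and those of Klhl38. Aurkb, which encodes Aurora B, had 1 count in library 2 and 3 in library 1, and Krt14 had 0 counts in both.

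Klhl9 and Klhl13, which act with Klhl21 on Aurora B, are 90.1% identical, the closest pair of the family, yet stood at different levels. Klhl9 (chromosome 4 at 88718292 to 88722465), which is also linked to a human distal myopathy, had 24.4 TPM in library 2 and 21.2 TPM in library 1 (22.8 ± 2.25). Klhl13 had 1.46 and 1.88 TPM in libraries 2 and 1 (1.67 ± 0.297), with 121 counts in each library. The expected counts of both were whole numbers, so in these tables no read was divided between them.

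The remaining members with mean TPM of at least 10 were 3 that stand outside the muscle list. Klhl7 (chromosome 5 at 24100605 to 24160792), linked to retinitis pigmentosa in humans, had 15.0 TPM in library 2 and 15.3 TPM in library 1 (15.2 ± 0.198; 1113 and 1278 counts in libraries 2 and 1). Klhl8 (chromosome 5 at 103861973 to 103911259), whose worm relative limits the acetylcholine receptor clustering protein rapsyn, had 14.1 and 10.6 TPM in libraries 2 and 1 (12.4 ± 2.44; 1121 and 951 counts in libraries 2 and 1). Klhl22 (chromosome 16 at 17759618 to 17793382), an adaptor for DEPDC5, a protein of the amino acid sensing pathway, had 12.8 and 11.4 TPM in libraries 2 and 1 (12.1 ± 0.99; 703 and 700 counts in libraries 2 and 1). Klhl8 and Klhl22 overlapped in range, and Klhl7 lay above both.

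Among the 19 members between 1 and 10 TPM were several with well-described substrates, and their values ran from 0.77 to 10.2 TPM. Kbtbd2, which removes the phosphoinositide 3-kinase subunit p85 alpha, had 9.91 TPM in library 2 and 8.67 TPM in library 1. Klhl12, which acts on SEC31 in the coat of secretory vesicles and on Dishevelled proteins, had 8.99 and 7.46 TPM in libraries 2 and 1, and Klhl20, an adaptor for DAPK1, PML and ULK1, had 3.51 and 2.81 TPM in libraries 2 and 1. Kbtbd4 had 8.75 and 8.62 TPM in libraries 2 and 1, but its exons overlap those of Ndufs3 on the opposite strand, a respiratory chain gene at 195 and 185 TPM in libraries 2 and 1, and Ptpmt1 at 26.0 and 21.3 TPM in libraries 2 and 1. The sources used here do not say whether the counting used strand, so the Kbtbd4 level is uncertain. Exons of 10 other members overlap another gene, and each of those partners stood at 0.32 TPM or less.

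The members that were low or at 0 include several whose known sites of action lie outside muscle. Klhl6, a B cell adaptor, had 0.15 TPM in library 2 and 0.22 TPM in library 1, and Klhl10, which is needed for sperm formation, had 0.18 and 0.14 TPM in libraries 2 and 1. Klhl3, which with Klhl2 directs WNK kinases to degradation and acts in the kidney, had 0.14 and 0.17 TPM in libraries 2 and 1, against 3.16 and 1.80 TPM in libraries 2 and 1 for Klhl2, to which it is 76.1% identical. Klhl1, a neuronal member, Klhl14 and Klhl35 had 0 counts in both libraries in the first quantification. The second gave 0 for Klhl14 and Klhl35 in both libraries, and for Klhl1 0 counts in library 2 and 4 in library 1. In the first quantification a level of up to 3 counts cannot be told from 0, or 0.0869 CPM in library 2 against 0.0843 CPM in library 1, where CPM scales a count to the sum of its library.

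Kbtbd6 and Kbtbd7, which together bind GABARAP and act on TIAM1, are neighbours on chromosome 14 with 20.8 kb between them and are 83.3% identical. Kbtbd7 had 2.16 TPM in library 2 and 1.98 TPM in library 1, and Kbtbd6 had 0.02 TPM in each. Their expected counts are fractional, 252 in library 2 and 267 in library 1 for Kbtbd7, 1.24 in library 2 and 1.41 in library 1 for Kbtbd6, because reads were shared between them, so the split is uncertain. Over all 990 pairs of members the median protein identity was 28.7%. Of the pairs, 4 lie within 1 Mb of each other on 1 chromosome, and the levels within each of them lay apart. Klhl41 lies 138 kb from Klhl23, at 3.03 and 2.52 TPM in libraries 2 and 1, and Klhl24 lies 115 kb from Klhl6.

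Across the order of mean TPM, 21 of the 31 neighbouring pairs with mean TPM of at least 1 overlapped in range, so the exact order within the middle of the list is not fixed by 2 libraries. Klhl31 and Klhl41 stood at 222 TPM or more in both libraries, and no other member passed 65.1 TPM in either.

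The libraries were then compared as counts under TMM scaling (trimmed mean of M values), given as the log2 ratio of library 2 over library 1 with a 95% counting interval. These intervals cover counting error only, and no p-value was made with 1 library on each side. Of the 32 members with mean TPM of at least 1, 1 (3.13%) passed an absolute log2 ratio of 0.5, beside 7.07% of all 11065 genes with that level. The median member ratio was 0.052 and its median size 0.085, against 0.00062 and 0.12 over all genes. The ratio was above 0 for 22 of the 32 members, beside 50.2% of all 11065 genes, and the counting interval lay clear of 0 for 11 of 32, beside 30.2% of all genes. The width of that interval depends on the counts of each gene, so the last shares also follow expression level.

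**Figure D2:**
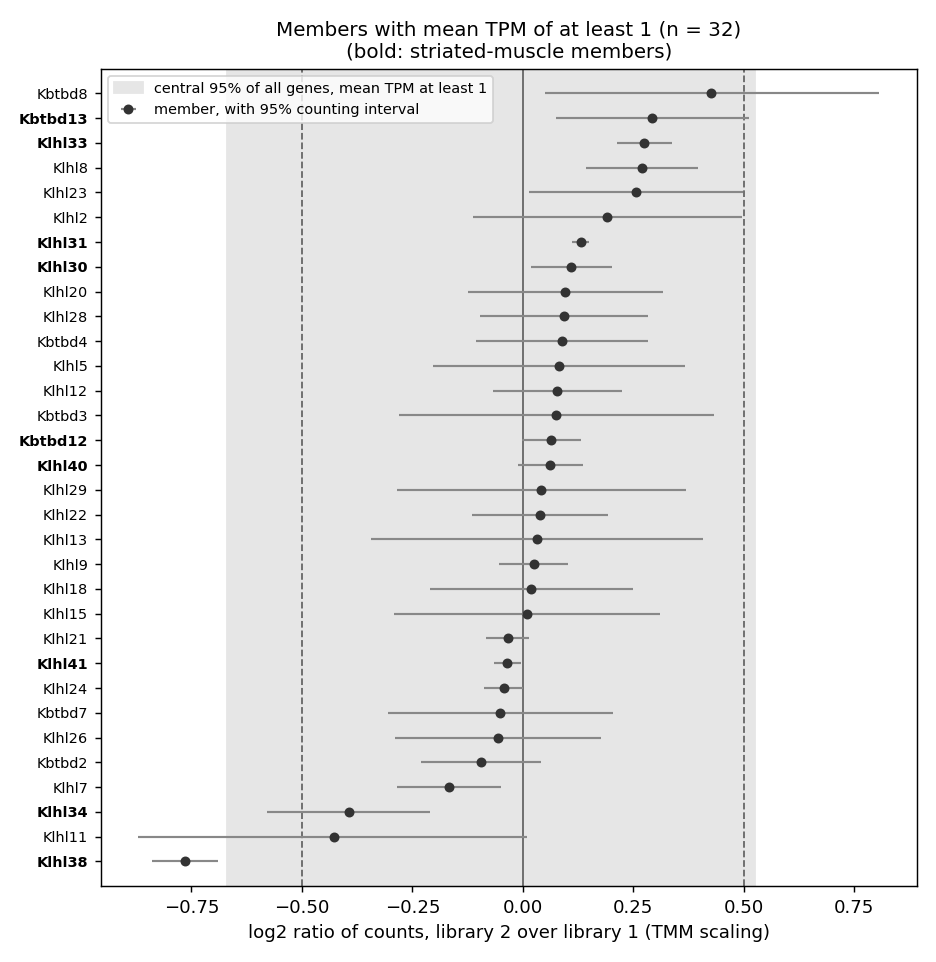
Log2 ratio of scaled counts, library 2 over library 1, for the 32 members with mean TPM of at least 1; bars are 95% counting intervals, dashed lines mark ±0.5, and the grey band is the central 95% of all genes (-0.67 to 0.53). Klhl38, at -0.76, is the 1 point outside the band.

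Klhl38 was that member, with 2278 counts in library 2 and 3959 in library 1 and a log2 ratio of -0.76 (95% interval -0.84 to -0.69). Of all genes, 4.26% passed 0.5 in this direction. Trim63 and Fbxo32, the ubiquitin ligase genes best known from muscle atrophy, were looked at after the Klhl38 value was seen. Trim63 had 6440 and 13644 counts in libraries 2 and 1 and a ratio of -1.05 (-1.09 to -1.01), and Fbxo32 had 18640 and 31137 counts in libraries 2 and 1 and a ratio of -0.71 (-0.73 to -0.68). All 3 genes were lower in library 2 by more than the counting error. The labels of the libraries differ only in identifiers and replicate number, and whether these genes move together was not tested.

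Smaller gaps remained among the other members with mean TPM of at least 10 and the muscle list. Klhl33 had 4530 counts in library 2 and 3830 in library 1 (log2 ratio 0.28, 0.21 to 0.34), Kbtbd13 had 382 in library 2 and 319 in library 1 (0.29, 0.075 to 0.51), and Klhl34 had 421 in library 2 and 566 in library 1 (-0.39, -0.58 to -0.21). Outside the muscle list, Klhl8 had a ratio of 0.27 (0.14 to 0.40) and Klhl7 one of -0.17 (-0.28 to -0.049). Klhl31 had a ratio of 0.13 (0.11 to 0.15), and Klhl41 one of -0.035 (-0.066 to -0.0045) that turned to 0.14 on deposited TPM. Klhl30 had 2016 counts in library 2 and 1911 in library 1 (0.11, 0.019 to 0.20). The counting interval included 0 for Klhl40 (0.062), for Kbtbd12 (0.065, 3601 counts in library 2 and 3522 in library 1), for Klhl9 (0.025, 2614 counts in library 2 and 2629 in library 1) and for Klhl22 (0.039). It also did for Klhl21 (-0.034) and Klhl24 (-0.043), whose ratios were above 0 on deposited TPM. The slow-fibre markers were higher in library 2 in 6 of 6 cases, with a median ratio of 0.28, the 6 fast-fibre markers had a median of 0.032, and the 3 detected macrophage markers had a median of -0.35. The median was -0.10 for the 5 endothelial and 0.026 for the 4 fibroblast markers. The fibroblast markers went both ways, from -0.34 for Pdgfra to 0.49 for Col1a1. None of these markers passed 0.5 at mean TPM of at least 1, beside 7.07% of all genes. The macrophage markers under that level, Cd68 (-0.52) and Adgre1 (-0.54), rest on 43 counts or fewer per library. The part of the markers in the member ratios was not tested.

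On deposited TPM, 4 of the 32 members passed 0.5, beside 13.2% of all genes, and the median gene stood 0.17 higher in library 2 on the log2 scale. The 4 were Klhl38, Klhl2, Kbtbd8 and Klhl29. For the last 3 the ratio of the gene's counts stayed under 0.5, and part of the TPM gap lay in a transcript counted mainly in library 2. Kbtbd8, an adaptor that acts on TCOF1 and NOLC1 in neural crest, had 138 counts in library 2 and 105 in library 1 but 2.50 and 0.77 TPM in libraries 2 and 1. Without Kbtbd8-204, a processed transcript of 385 bases with 10.2 counts in library 2 and 0 in library 1, it had 1.13 and 0.77 TPM in libraries 2 and 1. Klhl2 had 192 and 172 counts in libraries 2 and 1 and 3.16 and 1.80 TPM in libraries 2 and 1, and without Klhl2-203, of 321 bases, it had 2.12 and 1.68 TPM in libraries 2 and 1. Klhl29 had 159 and 158 counts in libraries 2 and 1 and 1.23 and 0.80 TPM in libraries 2 and 1, and without a second transcript of 2716 bases, with 39.3 counts in library 2 and 6.52 in library 1, it had 0.66 and 0.72 TPM in libraries 2 and 1.

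Most kelch adaptor RNA came from protein-coding transcripts. These held 98.2% of member TPM in library 2 and 98.0% in library 1 (98.1 ± 0.178%), against 88.1 ± 0.156% over all nuclear coding genes, while transcripts with a retained intron held 1.22 ± 0.136% against 4.39 ± 0.146%, and processed transcripts 0.555 ± 0.107% against 5.76 ± 0.0131%. The weight of Klhl31 and Klhl41, with 1 transcript each, enters the member values. Of the 45 members, 11 have 1 annotated transcript and 34 have several. Among the 22 of these 34 with mean TPM of at least 1, the leading transcript by mean TPM was the same in both quantifications for 20, and in the first quantification it led in both libraries for 20. By mean TPM in the first quantification, Kbtbd8 was the 1 member led by a transcript that is not protein-coding. In library 1 that transcript, Kbtbd8-204, held 0% and a protein-coding transcript led with 74.0%. In the second quantification Klhl2 was also led by a processed transcript, Klhl2-203, with 65.5% in library 2 and 11.5% in library 1.

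**Figure D3:**
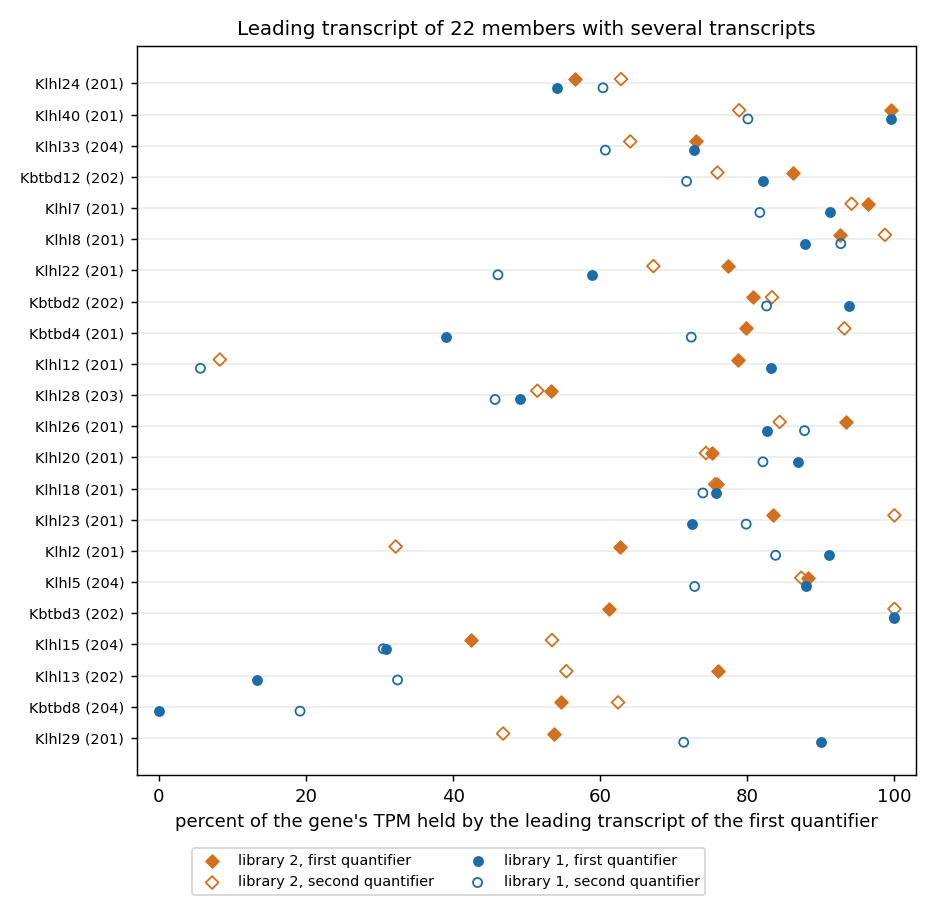
Percent of each gene's TPM held by its leading transcript (number in brackets) for the 22 members with several transcripts and mean TPM of at least 1; diamonds are library 2, circles library 1, filled the first quantification and open the second. Most points lie above 50%, while Klhl12-201 holds 78.8% and 83.3% in libraries 2 and 1 in the first quantification, and 8.29% and 5.65% in the second.

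Klhl24 was divided between Klhl24-201, of 8172 bases, with 56.5% of its TPM in library 2 and 54.1% in library 1, and Klhl24-204, of 840 bases, with 42.2% in library 2 and 43.2% in library 1. In counts Klhl24-201 had 7387 in library 2 and 7739 in library 1, and Klhl24-204 had 506 in library 2 and 566 in library 1. Klhl40-201 held 99.5% and 99.6% of Klhl40 in the first quantification and 78.9% and 80.1% in the second, in libraries 2 and 1. The named Klhl12 transcript was not settled, since Klhl12-201 held 78.8% and 83.3% in the first quantification and Klhl12-203 held 87.8% and 87.3% in the second, in libraries 2 and 1. The level of the whole Klhl12 gene differed little, at 8.99 and 8.44 TPM in library 2 and 7.46 and 6.99 TPM in library 1 in the first and second quantifications. At the gene level, none of the 32 members with mean TPM of at least 1 differed by more than 2 times between quantifications, and the ratio of the first over the second ran from 0.684 to 1.29.

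The ligase that these adaptors serve was present in full. Cul3 itself had 109 TPM in library 2 and 95.1 TPM in library 1 (102 ± 9.6), and Rbx1 had 43.4 and 38.1 TPM in libraries 2 and 1 (40.8 ± 3.75). The 45 kelch members together had 9.19 times the TPM of Cul3 in library 2 and 9.35 times in library 1 (9.27 ± 0.111). All 25 genes of the CUL3 core, neddylation, CAND exchange and COP9 lists were detected in both libraries, beside 44.7% of nuclear coding genes. Their median ratio was 0.032, and 0 of 25 passed 0.5, beside 7.07% of all genes with mean TPM of at least 1.

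Neddylation attaches NEDD8 to the cullin and switches the ligase on. By mean TPM, its 10 genes were led by Nedd8 at 92.0 TPM in library 2 and 77.5 TPM in library 1, by Ube2m, the NEDD8-conjugating enzyme, at 65.2 and 53.4 TPM in libraries 2 and 1, and by Dcun1d1, a ligase for NEDD8, at 42.3 and 31.3 TPM in libraries 2 and 1, a range that overlapped that of Dcun1d2. The COP9 signalosome takes NEDD8 off again. Its list of 11 also holds Senp8, a NEDD8 protease that is not a subunit of the signalosome. By mean TPM this list was led by Cops9 at 88.6 and 77.4 TPM in libraries 2 and 1, Cops7a at 56.9 and 49.3 TPM in libraries 2 and 1 and Cops5, the catalytic subunit, at 59.0 and 45.4 TPM in libraries 2 and 1. Of the CAND proteins, which exchange adaptors on cullins, Cand2 had 32.3 TPM in library 2 and 23.8 TPM in library 1, against 5.81 and 5.17 TPM in libraries 2 and 1 for Cand1. Cand2 is the muscle form, and the pair did not overlap.

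**Figure D4:**
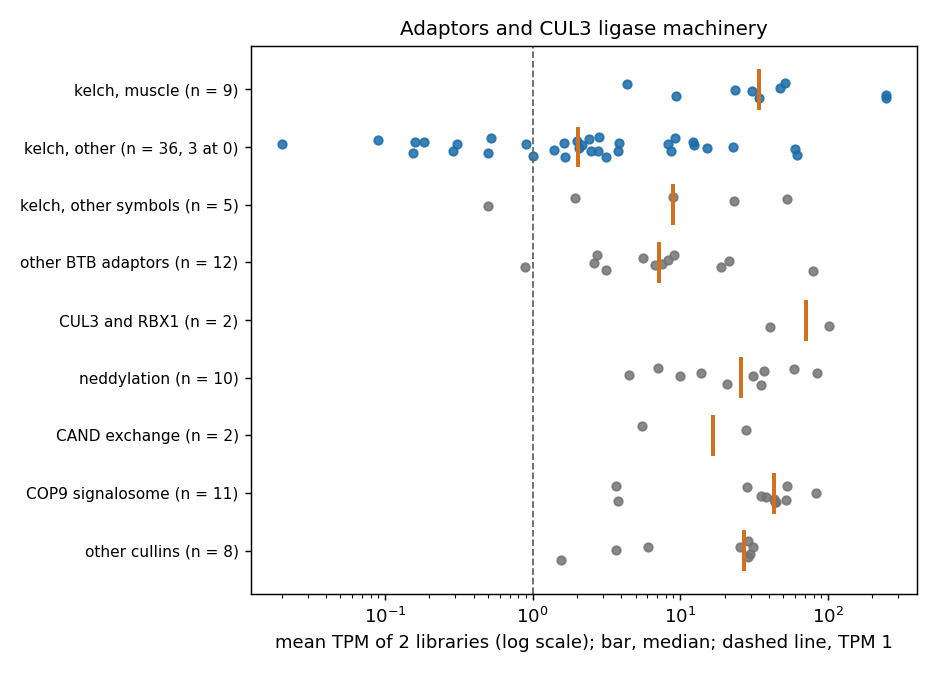
Mean TPM of 2 libraries for each gene (log axis) in the 9 muscle kelch members, the other 36 kelch members, 5 kelch adaptors with other symbols, 12 BTB adaptors without kelch repeats, and the CUL3 ligase and cullin lists; orange bars are medians. The muscle kelch members have a median of 34.1 TPM, and the other kelch members one of 2.04 TPM.

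Kelch adaptors named outside the Klhl and Kbtbd symbols were few and lay in the same range. Of 5, 4 were detected, led by Ivns1abp at 51.8 TPM in library 2 and 54.3 TPM in library 1, Keap1, the sensor that degrades NRF2, at 24.4 and 21.9 TPM in libraries 2 and 1, and Ipp at 10.3 and 7.64 TPM in libraries 2 and 1. Of 12 CUL3 adaptors with a BTB domain and no kelch repeats, 11 were detected, led by Spop at 85.4 and 72.6 TPM in libraries 2 and 1, Rhobtb1 at 24.7 and 18.1 TPM in libraries 2 and 1 and Tnfaip1 at 20.1 and 17.7 TPM in libraries 2 and 1. None of these 17 adaptors passed 0.5 at mean TPM of at least 1, beside 7.07% of all genes. The share detected over all nuclear coding genes was 44.7%. Klhl31 and Klhl41 each stood above all 17 in both libraries. The other cullins and Rnf7, the RING partner of Cul5, were detected in 8 of 8 cases, and by mean TPM the leaders were Cul5 at 34.1 and 28.5 TPM in libraries 2 and 1, Rnf7 at 28.9 and 30.6 TPM in libraries 2 and 1 and Cul1 at 31.4 and 26.5 TPM in libraries 2 and 1.

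Of 4 known partners of the muscle members, Neb had the highest RNA level and Lmod3 the lowest. Nebulin, Neb, the thin filament ruler bound by KLHL40 and KLHL41, had 2886 TPM in library 2 and 2449 TPM in library 1 (2667 ± 309.6). Nrap had 313 and 291 TPM in libraries 2 and 1 (302 ± 15.6), Flnc, the filamin of muscle, 133 and 133 TPM in libraries 2 and 1 (133 ± 0.453), and Lmod3 37.1 and 32.4 TPM in libraries 2 and 1 (34.8 ± 3.3). None of the 4 passed 0.5, beside 7.07% of all genes with mean TPM of at least 1. Their ratios ran within the range of the muscle members other than Klhl38.

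Partners of the other members were detected in 22 of 28 cases, beside 44.7% of nuclear coding genes, with a median ratio of -0.0088. By mean TPM they were led by Wnk1, a target of Klhl2 and Klhl3, at 161 TPM in library 2 and 106 TPM in library 1, by Gabarap, an autophagy protein bound by Kbtbd6 and Kbtbd7, at 86.5 and 79.4 TPM in libraries 2 and 1, and by Gabarapl2 at 49.4 and 44.5 TPM in libraries 2 and 1, a range that overlapped that of Dvl1. The scaled counts of Wnk1 lay closer than its TPM, at a log2 ratio of 0.20 (0.17 to 0.24). Of the 24 partners with mean TPM of at least 1, the 1 past 0.5 in scaled counts was Pik3r1, beside 7.07% of all genes. Pik3r1 encodes p85 alpha, the target of Kbtbd2. It had 2540 counts in library 2 and 4316 in library 1 (log2 ratio -0.73, -0.80 to -0.66), and 16.1 and 24.0 TPM in libraries 2 and 1. Kbtbd2 had 846 and 924 counts in libraries 2 and 1 and a ratio of -0.094 (-0.23 to 0.042), so its interval included 0.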

How the data were processed

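Total RNA of 2 gastrocnemius libraries was analysed. Per the labels, a directional kit and ERCC spike-ins were used; the labels number the libraries as biological replicates and give both 1 donor identifier, so separate animals are not settled and the spread may be technical. They were not copies of 1 library: over 15953 genes chi-square per degree of freedom was 18.6, and the common biological coefficient of variation (edgeR) was 0.0942. Per the file headers, the authors deposited expected counts and TPM per gene and transcript (first quantification) with the percent of a gene's TPM in each transcript, and estimated counts and TPM per transcript from a second quantification, all on mm10 with GENCODE M21, per the deposited read-me. The software and the use of strand are not given in the sources used here. Reads from CAST alleles were also quantified on mm10, and what this does to single genes was not tested.

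Of 55536 genes, 86 absent from the second quantification were left out. Also left out, beside these genes, were 97 spike-in entries and 26248 entries with a numeric identifier. The numeric entries held 0 counts in library 2 and 1 in library 1. Levels are deposited TPM. Ratios used expected counts rounded to whole numbers, TMM scaling over 11572 genes with at least 1 CPM in both libraries (edgeR 4.0.16, R 4.3.3) and exact Clopper-Pearson 95% intervals. A gene was named as apart at an absolute log2 ratio of 0.5 and mean TPM of at least 1. Identity was computed on coding sequences of GENCODE M21, translated (Biopython 1.88). Scripts were tested on simulated data. Alternatives used DESeq2 1.42.0 size factors, spike-ins, deposited TPM, the second quantification, other thresholds and each library alone. Members with mean TPM of at least 10 or past 0.5 were given in full, and the 3 highest genes and those past 0.5 of each list were named. Members and gene lists were chosen with earlier results of these data known.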

Additional observations from a re-analysis of the deposited data

How the results depend on the processing

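The number of members detected ran from 25 to 38 with a TPM minimum of 0.5 or 2, a minimum of 10 counts, the second quantification and each library alone. The share of all nuclear coding genes is given only for the main setting (44.7%), so these counts have no matching background. The member share of nuclear coding TPM (0.226%) was 0.208% in the second quantification, 0.0952% when taken over the TPM of all genes and 0.396% of expected counts, in which long genes weigh more. In expected counts the 3 highest members held 66.8% rather than 59.1%. Beside the 1 member past a log2 ratio of 0.5, the number was 0 at a limit of 1, 4 on deposited TPM, and 3 with no minimum level and a prior count of 0.5. Of all genes, 7.07% passed at the main setting and 13.2% on deposited TPM. No such share is given for the limit of 1 or for no minimum level, so those counts are not read as a trait of the members. Klhl38 kept a ratio below -0.5 on deposited TPM (-0.59). The leading transcript was shared between quantifications for 9 of 10 members at mean TPM of at least 5. On deposited TPM, Klhl41 (0.14), Klhl21 (0.14) and Klhl24 (0.079) were higher in library 2, opposite to their ratios under TMM. The median ratio of all genes was 0.17 on deposited TPM and 0.00062 under TMM. The median member ratio ran from -0.011 with spike-in scaling to 0.20 on deposited TPM. No paired analysis was possible because the libraries form 1 group. Members under TPM 1 rest on 88 counts or fewer per library, so their order and ratios are not resolved at this depth.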
